A study of Drosophila melanogaster with 4 samples.

Results

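The respiratory chain genes of Drosophila melanogaster were followed in whole females that had not mated or had mated with 1 of 3 kinds of male. Members were chosen by gene symbol alone: names beginning with ND-, UQCR-, COX or ATPsyn, together with SdhA, SdhB, SdhC, SdhD, Cyt-c-p, Cyt-c1, RFeSP, sesB and Mpcp1. The value table held 67 such genes on 69 probe sets that match 1 gene each, among 12443 single-gene probe sets. A RefSeq gene table lists 92 genes under the same rule, and the other 25, Cyt-c-p and SdhA among them, were not analysed here. Of the 67 genes, 14 are paralogues whose symbol ends in L or in L and a digit (such as COX4L and COX6AL2), a name given to duplicates of a subunit gene, many of them known to be testis-biased. ND-MNLL, whose L is no such suffix, was not counted as one. The other 53 are called core members.

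All females came from 1 inbred Canton S wild-type stock, were 3 to 4 days old and were reared at 25 °C. Virgin females were unmated. The DTA-E males came from a transgenic stock in a Canton S background, make no sperm and lack the accessory gland proteins (Acps) of the main cells, which are 96% of that gland's secretory cells. The spermless males, called sons of tudor in the labels, were sons of bw sp tud1 mothers and Canton S fathers, and transfer Acps without sperm. The wild-type males were Canton S and transfer both, and mated females were frozen 1 to 3 h after mating. Each group is a pool of 50 flies, 2 RNA extractions and 4 Affymetrix chips per the labels, but the table holds 1 column per group, so no replicate spread, standard error or test exists.

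The respiratory chain sits in the inner mitochondrial membrane. Complex I takes electrons from NADH and complex II from succinate, complex III passes them to cytochrome c, complex IV hands them to oxygen, and complex V uses the resulting proton gradient to make ATP. The adenine nucleotide carrier and the phosphate carrier bring in ADP and phosphate for that last step. In insects, flight muscle is among the tissues richest in mitochondria. Whole-fly RNA mixes all tissues, so fewer cells of a type and less RNA per cell cannot be told apart.

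The deposited numbers are logarithms of unstated base, read here as log2, so that a step of 1 means 2-fold. Levels are given after centring each column on the median of the probe sets kept. In the values by column below, females mated to DTA-E, spermless or wild-type males are called DTA-E, spermless or wild-type mates. A gene was compared when its highest column, before centring, reached the overall median of -0.18, which kept 6201 genes. Of the members 58 passed, 52 core and 6 paralogues. ND-B8 is the only core member that passed with a column below that line. Where a gene had more than 1 probe set, these differed in a comparison with an SD of 0.08 to 0.09. That is the only error estimate at hand and leaves out any spread between pools. Column correlations were 0.993 to 0.996.

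Core members were highest after spermless males and lowest after wild-type males. The spermless column was the highest of the 4 for 51 of 52 core members and the wild-type column the lowest for 50. Both held at once for 49 of 52, where 8.58% of all genes compared had that pattern. Virgin and DTA-E columns lay between, close to each other. Wild-type against spermless gave the widest contrast, with all 52 lower after wild-type males by a median of -0.49 (SD over genes 0.24), a 1.40-fold difference, beside a median of 0.01 over all genes and 45.3% of all genes lower. No cause of this order was tested.

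**Figure D1:**
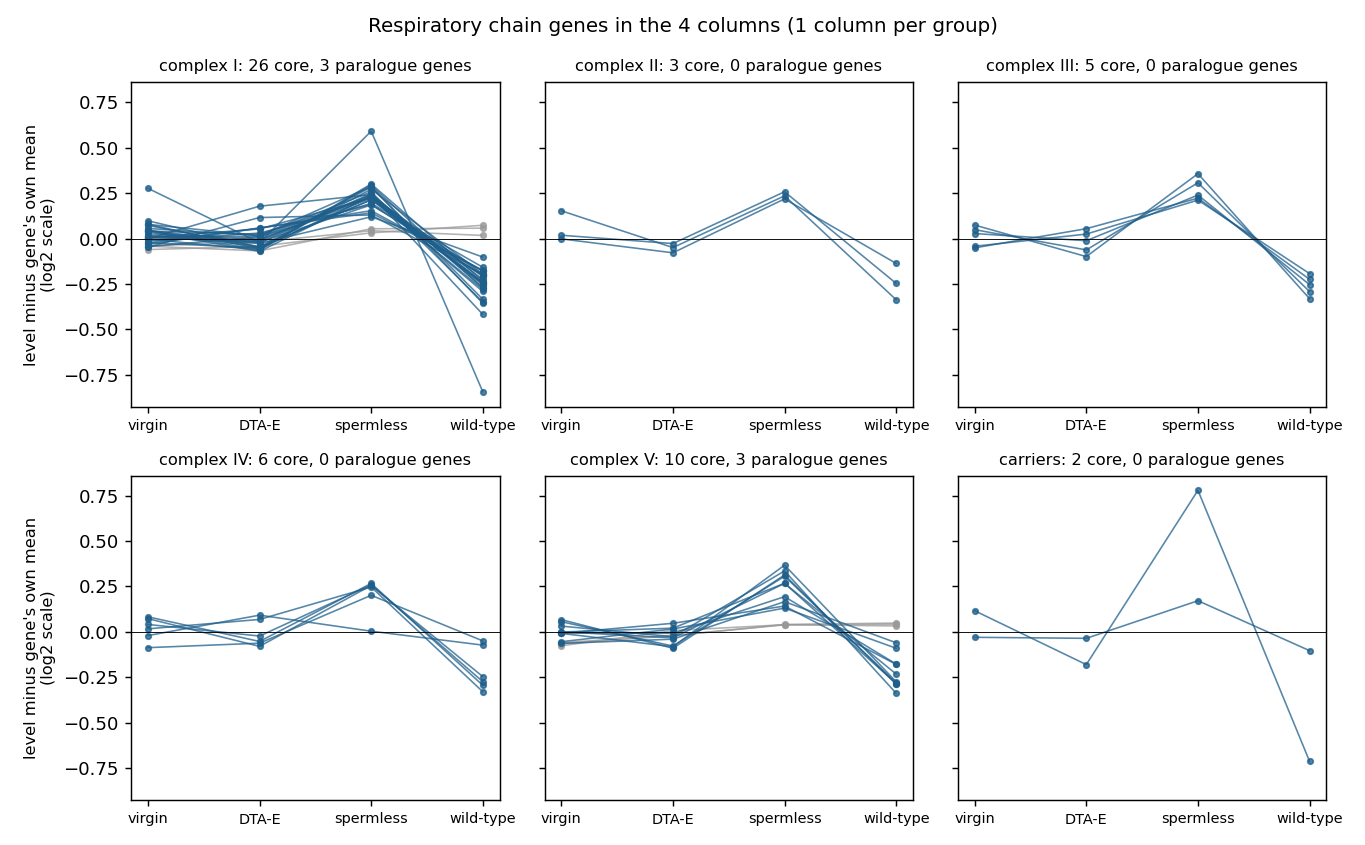
Level of each member that passed the filter, minus its own mean over the 4 columns (y axis, log2 scale), in virgin females and after DTA-E, spermless and wild-type males (x axis); blue lines are core members, grey lines paralogues, 1 panel per complex. Of the 52 blue lines 49 peak in the spermless column and reach their lowest point in the wild-type column, whereas none of the 6 grey lines does.

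Complex I, the NADH dehydrogenase, had 26 core members and every one of them was highest after spermless males and lowest after wild-type males. Their median level was 1.64 in virgins, 1.63 in DTA-E mates, 1.83 in spermless mates and 1.36 in wild-type mates. ND-B8, an accessory subunit, had the widest range of the complex, with 0.19 in virgins, -0.11 in DTA-E mates, 0.51 in spermless mates and -0.93 in wild-type mates. The wild-type column is far below the other columns, by -1.12 against virgin and -1.44 against spermless. That wild-type value lay below the filter line, and the 23 foreign control probe sets, which match no fly gene, reached -1.13 in that column. The size of these differences is therefore uncertain. In the RefSeq table Gs1l overlaps ND-B8, and Gs1l, chosen after its values were seen, differed by -0.10 in wild-type against spermless.

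ND-MWFE, a small membrane subunit, was 2.82 in virgins, 2.99 in DTA-E mates, 3.06 in spermless mates and 2.40 in wild-type mates. Here DTA-E and spermless values lay 0.06 apart, less than the probe set SD, and the wild-type value stood -0.60 below DTA-E. ND-B17.2, an accessory subunit, was 0.95, 0.91, 1.18 and 0.54 in the same order of columns. ND-ASHI, an accessory subunit of the membrane arm, was 1.47, 1.33, 1.66 and 1.04. ND-B14, another accessory subunit, was 1.97, 1.91, 2.15 and 1.54. In these 3 genes the spermless value was the high one and the wild-type value the low one, with wild-type against spermless at -0.64, -0.62 and -0.61.

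The conserved catalytic subunits named next lay near the complex I median of -0.47 in wild-type against spermless. ND-75, which carries iron-sulfur clusters, was 1.57 in virgins, 1.45 in DTA-E mates, 1.71 in spermless mates and 1.26 in wild-type mates. ND-51, the subunit that binds NADH and FMN, was 1.60, 1.5, 1.76 and 1.34 in that order. ND-20, which holds the last iron-sulfur cluster before ubiquinone, was 1.81, 1.80, 2.02 and 1.54. Their differences in wild-type against spermless were -0.45, -0.42 and -0.48. The narrowest range belonged to ND-PDSW, an accessory subunit, at 1.94, 1.91, 2.05 and 1.83. ND-MNLL was the only core member with 2 probe sets past the filter, and these differed by -0.34 and -0.30 in wild-type against spermless.

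Complex II, the succinate dehydrogenase, was represented by 3 of its 4 subunits. SdhB, the iron-sulfur subunit, was 2.48 in virgins, 2.28 in DTA-E mates, 2.57 in spermless mates and 1.99 in wild-type mates. Its virgin value was close to its spermless value, 0.08 apart, and wild-type lay -0.49 below virgin. The membrane anchor gene SdhC was 1.06, 1.01, 1.30 and 0.79 in that order, and SdhD, the other anchor, was 1.52, 1.44, 1.74 and 1.38. All 3 were highest after spermless and lowest after wild-type males.

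Complex III, the cytochrome bc1 complex, had 5 core members with the same order of high and low columns. Cyt-c1, the cytochrome that hands electrons to cytochrome c, was 2.05 in virgins, 1.87 in DTA-E mates, 2.33 in spermless mates and 1.64 in wild-type mates. RFeSP, the Rieske iron-sulfur protein, was 1.85, 1.74, 2.11 and 1.51. For both, wild-type against spermless was past 1.5-fold, at -0.69 and -0.60. The small subunit genes UQCR-14 (-0.49), UQCR-6.4 (-0.45) and UQCR-Q (-0.41) differed by less in that comparison. UQCR-Q was 3.71, 3.78, 3.97 and 3.56 over the 4 columns and UQCR-14 was 1.69, 1.65, 1.90 and 1.41.

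In complex IV, cytochrome c oxidase, 4 of the 6 core members that passed were highest after spermless and lowest after wild-type males. COX4 was 3.56 in virgins, 3.41 in DTA-E mates, 3.74 in spermless mates and 3.24 in wild-type mates. COX5A (2.62, 2.48, 2.80 and 2.24), COX5B (3.02, 2.95, 3.24 and 2.70) and COX7B (3.29, 3.35, 3.52 and 2.95) had the same high and low columns. These 4 nuclear-encoded subunit genes were lower by -0.50 to -0.58 in wild-type against spermless.

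The other 2 complex IV genes that passed went otherwise. COX8 was 3.27 in virgins, 3.29 in DTA-E mates, 3.56 in spermless mates and 3.31 in wild-type mates. Only the spermless column stood out for COX8, and wild-type against virgin was 0.04. COX7A, at 2.66, 2.77, 2.68 and 2.61, was highest after DTA-E males and its range of 0.17 was the narrowest of the 52 core members that passed. COX7C did not pass the filter: its probe set lay between -1.80 and -1.64, inside the range of the 23 foreign control probe sets, which reached -1.11 in the spermless column. COX7C therefore has no measured level here.

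Complex V, the ATP synthase, had 10 core members. ATPsynB, of the peripheral stalk, was 2.75 in virgins, 2.69 in DTA-E mates, 3.05 in spermless mates and 2.38 in wild-type mates. ATPsyngamma, the rotor shaft, was 3.00, 2.93, 3.38 and 2.74. ATPsynO and ATPsynD, both of the stalk, were 3.30, 3.15, 3.55 and 2.95 and 3.58, 3.45, 3.83 and 3.25. These 4 were lower by -0.59 to -0.67 in wild-type against spermless, all past 1.5-fold. ATPsynbeta, the catalytic subunit, moved least in this complex, at 1.24, 1.31, 1.43 and 1.21.

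ATPsynC, the proton-carrying ring subunit, had 2 probe sets that disagreed in level. The probe set that passed was 2.35 in virgins, 2.38 in DTA-E mates, 2.58 in spermless mates and 2.36 in wild-type mates, and so was high only after spermless males. The other lay between -0.96 and -0.86 and did not pass. The remaining 4 genes, ATPsyndelta (-0.55), ATPsynF (-0.50), ATPsynE (-0.37) and ATPsynCF6 (-0.32), were lower in wild-type against spermless.

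The 2 carriers differed from each other. Mpcp1, a mitochondrial phosphate carrier, was 1.98 in virgins, 1.69 in DTA-E mates, 2.65 in spermless mates and 1.15 in wild-type mates. With a range of 1.49 it varied more than any other member, and each column stood at least 0.30 from the next. sesB, the main adenine nucleotide carrier, was 3.70, 3.69, 3.90 and 3.62, a range of 0.27. Mpcp2, a second phosphate carrier gene outside the rule, was 2.20, 2.22, 2.23 and 2.16.

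Of the 58 members, 12 reached a 1.5-fold range over the 4 columns, where 2.18% of all genes did, and 2 (ND-B8 and Mpcp1) reached 2-fold, where 0.758% did. At 2-fold or more lower, both were called in wild-type against spermless, with 0.355% of genes, and ND-B8 alone in wild-type against virgin, with 0.419%. All 12 were past 1.5-fold in wild-type against spermless: ND-B8, Mpcp1, Cyt-c1, ATPsynB, ND-MWFE, ND-B17.2, ATPsyngamma, ND-ASHI, ND-B14, ATPsynO, RFeSP and ATPsynD. The background for 1.5-fold or more lower in that comparison was 1.10% of genes. At 1.2-fold, 47 of 58 members were lower, against 4.98% of all genes. After quantile normalization ND-B8, Mpcp1 and ND-B17.2 were the 3 still past 1.5-fold, and all 12 kept their direction.

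**Figure D2:**
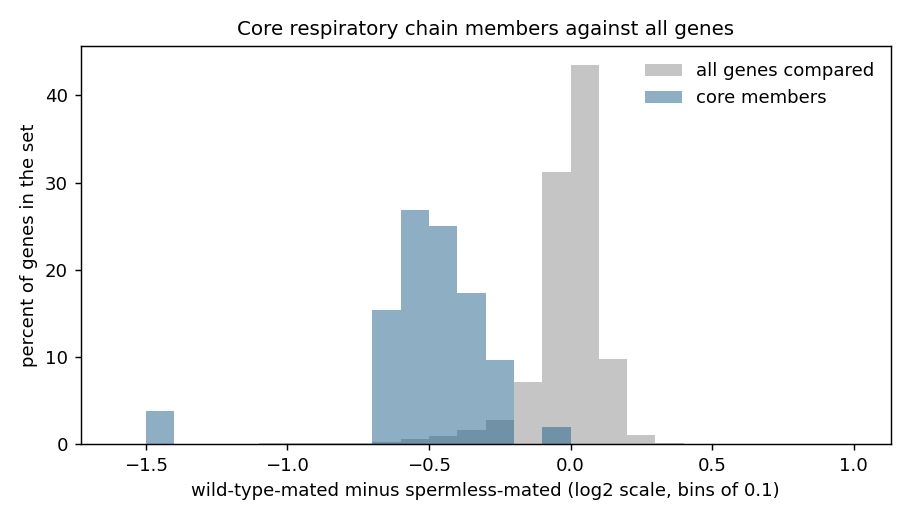
Wild-type-mated minus spermless-mated difference (x axis, log2 scale, bins of 0.1) for all 6201 genes compared (grey) and the 52 core members (blue), as percent of each set (y axis); 4 genes below the plotted range are not drawn. All core members lie below 0, ND-B8 and Mpcp1 alone below -1.

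Wild-type against virgin set females mated with normal males beside unmated females, 1 column each. Core members were lower in 50 of 52 cases, against 46.4% of all genes, with a median of -0.27 (SD over genes 0.19). The exceptions, COX8 (0.04) and ATPsynC (0.00), were at the level of the probe set SD or below. ND-B8 (-1.12) and Mpcp1 (-0.83) were the 2 members past 1.5-fold lower, a fold that 1.0% of genes reached, and SdhB (-0.49) came next. Lower by 1.2-fold or more were 28 of 58 members, against 3.77% of genes. The medians of complexes I to V lay between -0.32 (complex IV) and -0.25 (complex V).

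Mating without sperm or main-cell Acps, DTA-E against virgin, gave small differences of both signs. Of the 52 core members 36 were lower and 16 higher, with a median of -0.04, where 45.5% of all genes were lower and 54.5% higher. ND-B8 and Mpcp1 (-0.30 each) were the 2 members lower by 1.2-fold, which 1.90% of genes were, and SdhB was at -0.20. ND-MWFE (0.18) and ND-15 (0.16), a complex I subunit gene, were the highest. No member reached 1.5-fold in either direction, a fold reached by 0.194% of genes upward and 0.387% downward. The DTA-E column had the largest gap between 3' and 5' probe sets, which widens as RNA degrades, for actin, eIF-4a and GAPDH. For actin it was 2.26, beside 1.95 to 2.02 in the other columns. For eIF-4a it was 1.97, beside 1.70 to 1.80, and for GAPDH 1.97, beside 1.79 to 1.93. The part of RNA quality in this and the other comparisons with the DTA-E column was not tested.

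Spermless against virgin, mating with Acps but no sperm, went the other way. All 52 core members were higher, against 52.3% of all genes, with a median of 0.22 and a narrow spread (SD over genes 0.09). Mpcp1 (0.66) was the 1 member past 1.5-fold, which 0.50% of genes were, and 11 members were higher by 1.2-fold, against 2.73%. ATPsyngamma (0.38), ND-B8 (0.31), ATPsynB (0.30) and ND-39 (0.30), a complex I subunit gene, followed. COX7A (0.02) and SdhB (0.08) were the least different. Thus ND-B8 departed more from virgin in the wild-type column than in the spermless column. So did other core members, SdhB, COX5A (-0.38 beside 0.18) and Mpcp1 (-0.83 beside 0.66) among them. ATPsyngamma (-0.27 beside 0.38) and COX8 (0.04 beside 0.29) were among those that departed less. The core medians were -0.27 and 0.22. The DTA-E, spermless and wild-type comparisons of these paragraphs share the virgin column and are not independent.

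Spermless against DTA-E set males with Acps but no sperm beside males lacking sperm and main-cell Acps. The males also differ in genotype, so Acps, genotype and spread between pools cannot be told apart. Core members were higher in 51 of 52 cases, against 50.9% of all genes, with a median of 0.26 (SD over genes 0.15). COX7A (-0.09) was the exception. Mpcp1 (0.96) and ND-B8 (0.61) were past 1.5-fold, as were 0.516% of genes, and 24 members were past 1.2-fold, as were 2.69% of genes. ND-B8 was short of 1.5-fold in the columns as deposited (0.56) and without the filter (0.55), where the median over all 67 members was 0.15 in place of 0.25 over 58. Cyt-c1 (0.46) and ATPsyngamma (0.45) came next, while ND-15 (0.01) and ND-MWFE (0.06) hardly differed. Complex medians ran from 0.25 (complexes I and III) to 0.29 (complex II).

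Wild-type against DTA-E, where the males differ in sperm, main-cell Acps and genotype, gave the opposite sign. These parts and the spread between pools cannot be told apart. Core members were lower in 51 of 52 cases, against 51.7% of all genes, with a median of -0.23 (SD over genes 0.14), COX8 (0.01) being the exception. ND-B8 (-0.82) and ND-MWFE (-0.60) were past 1.5-fold lower, as were 0.387% of genes. ND-MWFE was short of that fold after quantile normalization (-0.53), removal of an intensity trend (-0.54) or the stricter filter (-0.56). At 1.2-fold 14 members were lower, against 1.92% of genes. Mpcp1 was at -0.53, COX7B at -0.40 and ATPsynC at -0.02.

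**Figure D3:**
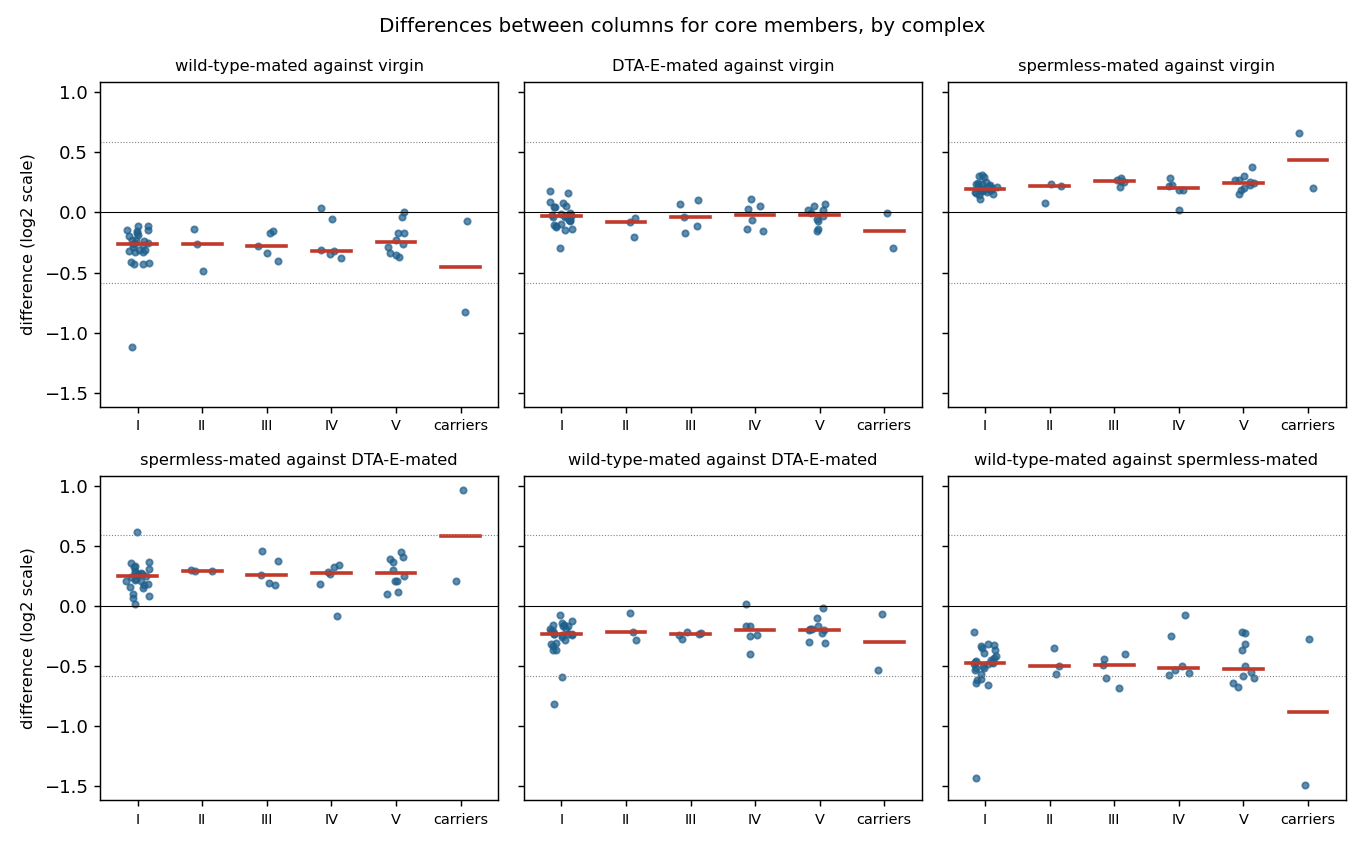
Difference between columns (y axis, log2 scale) for each core member that passed the filter (points), grouped by complex (x axis), in the 6 pairwise comparisons; red bars are medians and dotted lines mark 1.5-fold. The 5 complexes lie at like heights within each panel, from about 0 in DTA-E against virgin to medians of -0.53 to -0.47 in wild-type against spermless.

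The L paralogues did not share this pattern. None of the 6 that passed was both highest after spermless and lowest after wild-type males, and the virgin column was the lowest for 5 of them. ATPsynbetaL, the duplicate of ATPsynbeta, was -0.20 in virgins, -0.16 in DTA-E mates, -0.10 in spermless mates and -0.09 in wild-type mates. ND-20L, the duplicate of ND-20, was -0.48, -0.51, -0.39 and -0.38, and ND-24L was -0.34, -0.32, -0.26 and -0.28. The spermless and wild-type values of these 3 lay within the probe set SD of each other.

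Over all 14 measured paralogues, 8 of which did not pass, wild-type against virgin was above 0 in 14 of 14 with a median of 0.08, and spermless against virgin in 14 of 14 with a median of 0.10. After quantile normalization these counts were 12 of 14 each, with medians of 0.04 and 0.05. The 23 foreign control probe sets, which match no fly gene, differed by 0.07 and 0.12 in the same comparisons. COX7AL, at -2.04, -2.03, -1.89 and -2.0, and COX6AL2, at -1.94, -1.88, -1.77 and -1.86, were within or below the range of those controls. The levels of the paralogues in these whole females are therefore at or near background for part of the group.

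Other genes with bright probe sets were compared with the chain. Among 447 other genes at or above the lower quartile of core levels, the median in wild-type against spermless was -0.00, whereas the 39 core members in that range were at -0.49. In spermless against virgin the other bright genes were at -0.01 and the 39 core members at 0.21, and in spermless against DTA-E at -0.04 and 0.25. The other bright genes shared the sign of the core members in wild-type against DTA-E, at -0.05 with 30.9% higher, beside -0.23. They also shared it in wild-type against virgin, at -0.02 with 41.6% higher, beside -0.27. The 9 hybridization controls had a mean 0.16 higher in the wild-type than in the virgin column and 0.06 higher in the wild-type than in the spermless column, both opposite in sign to the core members. Their mean was 0.09 higher in the spermless than in the virgin column and 0.17 higher than in the DTA-E column, the sign of the core members in both.

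Genes of the tricarboxylic acid cycle and pyruvate dehydrogenase, which supply the chain with NADH and succinate, had similar values. Of 17 listed genes 11 were measured and passed. Wild-type against virgin had a median of -0.22 with 10 of 11 lower, and DTA-E against virgin -0.09 with 9 lower. Of all genes 46.4% and 45.5% were lower in these comparisons. The median was 0.20 for spermless against virgin, with 10 higher, beside 52.3% of all genes. It was -0.40 for wild-type against spermless, with 10 lower, beside 45.3% of all genes. In the last comparison 3 of 11 were past 1.5-fold lower, beside 1.10% of all genes. Idh3g, a subunit gene of the NAD-dependent isocitrate dehydrogenase, was 1.60 in virgins, 1.41 in DTA-E mates, 1.84 in spermless mates and 1.18 in wild-type mates. The aconitase gene mAcon1 (3.04, 2.98, 3.35 and 2.71) and Idh3a (2.17, 2.05, 2.44 and 1.81) had the same high and low columns. Men was the one list member lower after spermless males than in virgins, at -0.16. It encodes the NADP-dependent malic enzyme, which is no part of the cycle itself, and stayed in the counts. Idh (0.04), Scsalpha1 (0.03) and ScsbetaG (0.04) were counted as higher in that comparison, with differences below the probe set SD of 0.08.

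Other mitochondrial lists had smaller median differences. Of 20 other carrier, pore and shuttle genes 12 passed, with medians of -0.06 in wild-type against virgin, 0.02 in spermless against virgin and -0.06 in wild-type against spermless. In the last of these 10 of 12 were lower, beside 45.3% of all genes, and 12 of 12 after removal of an intensity trend. None of the 12 reached 1.2-fold in any comparison. Of 16 biogenesis and mitochondrial DNA maintenance genes 10 passed, with medians of 0.01 in each of these 3 comparisons and none past 1.2-fold. TFAM, the packaging factor of mitochondrial DNA, was 1.52, 1.54, 1.54 and 1.56 over the 4 columns. No mitochondrially encoded gene was analysed here.

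The list of complex assembly factors had 12 passing genes, with medians of -0.01 in wild-type against virgin, 0.03 in spermless against virgin and -0.06 in wild-type against spermless. Of these 9 of 12 were lower in wild-type against spermless, and 11 of 12 in wild-type against DTA-E, beside 51.7% of all genes. Leaving out the centring shifts every gene of a comparison alike, and in spermless against virgin it put the medians over all measured genes of the carrier, biogenesis, assembly and ovary lists below 0, at -0.01, -0.04, -0.02 and -0.04. One member past 1.2-fold, levy, encodes a structural subunit of complex IV and not an assembly factor. It was 3.23 in virgins, 3.15 in DTA-E mates, 3.44 in spermless mates and 2.94 in wild-type mates, with the high and low columns of the core members. Sirup, an assembly factor of complex II, was 0.14, -0.09, 0.08 and -0.11.

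Muscle genes moved with the core members in part. Of 26 listed flight and body muscle genes 21 were measured, and all 21 passed. Their mean level was 0.82 in virgins, 0.74 in DTA-E mates, 1.37 in spermless mates and 0.54 in wild-type mates. In spermless against virgin all 21 were higher, with a median of 0.47, beside 52.3% of all genes. In wild-type against spermless all 21 were lower, with a median of -0.49, beside 45.3% of all genes. In wild-type against virgin, however, the muscle median was -0.09 with 6 of 21 higher, beside -0.27 and 2 of 52 for the core members. Of all genes 46.4% were lower in that comparison. Act88F, the flight muscle actin, was 1.29, 0.66, 2.60 and -0.36 over the 4 columns. That order was seen for 36 of 52 core members, ND-B8 and Mpcp1 among them, and for 5.16% of all genes. The part of muscle content in the differences of the core members was not tested.

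**Figure D4:**
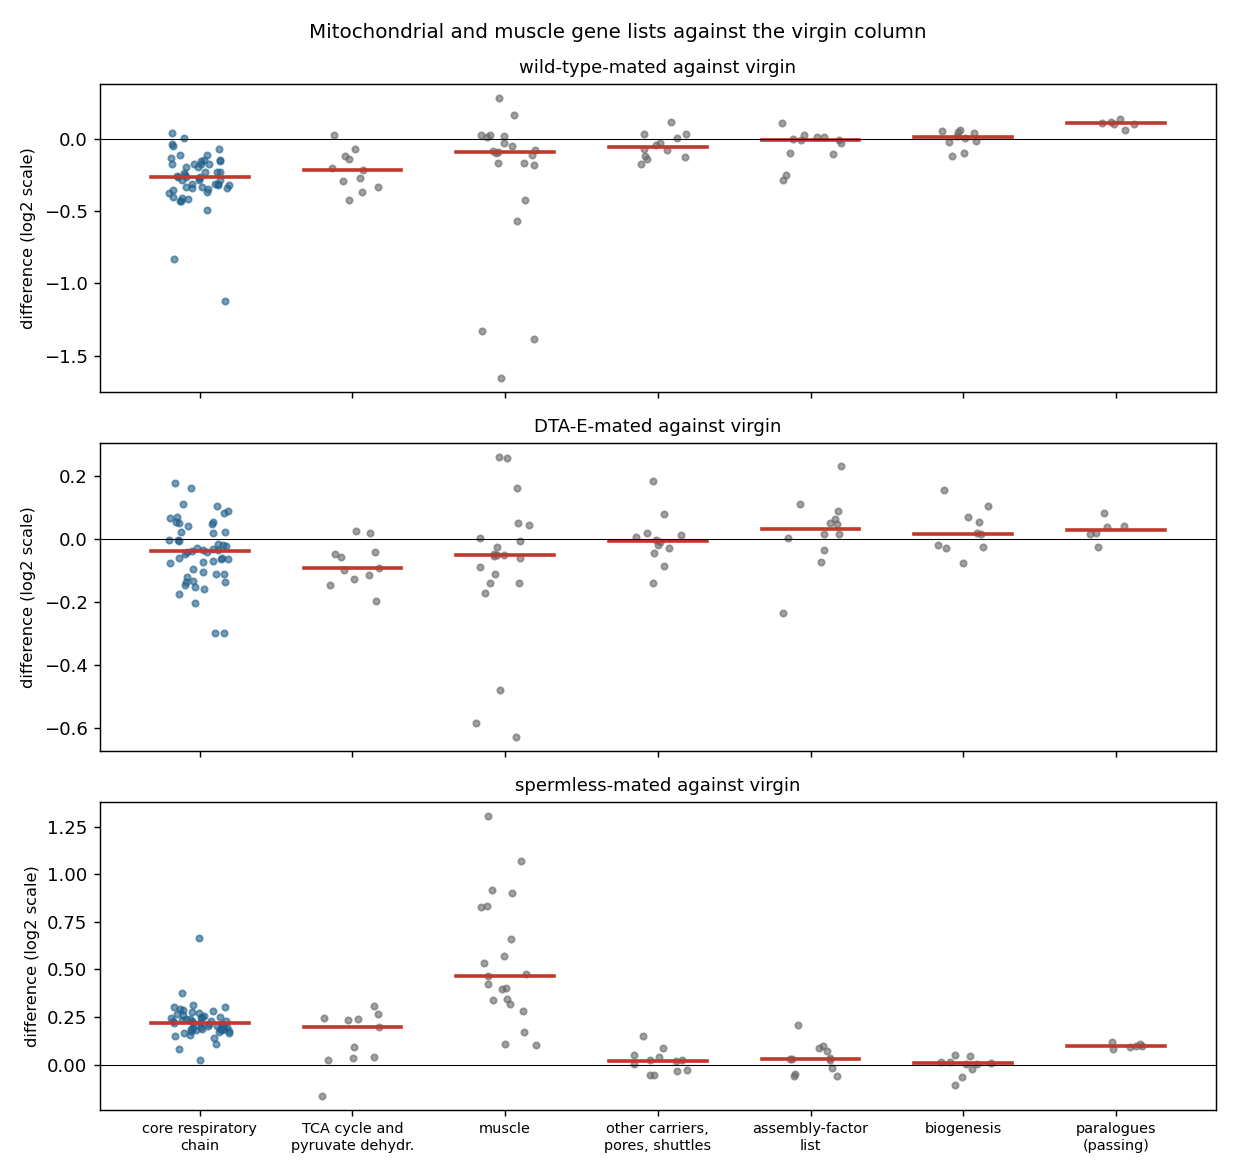
Difference from the virgin column (y axis, log2 scale, its own range in each panel) for each gene that passed the filter (points) in the core respiratory chain, 5 other lists and the paralogues (x axis), after wild-type, DTA-E and spermless males; red bars are medians. The medians of the core members and of the tricarboxylic acid cycle list lie below 0 after wild-type males (-0.27 and -0.22) and above 0 after spermless males (0.22 and 0.20). Single points lie on the other side, COX8 and ATPsynC after wild-type males and Men after spermless males among them.

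Markers of other tissues gave the following. The 7 midgut digestive genes measured were all lower in wild-type against virgin, with a median of -1.29, beside 46.4% of all genes. In spermless against virgin 6 of 7 were lower, with a median of -0.22. In that comparison the core members were higher, as were 52.3% of all genes. In every comparison but spermless against virgin, the midgut genes had the sign of the core median in 7 of 7 cases. Their medians were -1.03 in wild-type against spermless, -0.88 in wild-type against DTA-E, 0.20 in spermless against DTA-E and -0.38 in DTA-E against virgin. In the last of these the core median was -0.04. The shares of all genes with that sign were 45.3%, 51.7%, 50.9% and 45.5% in the same order. The 11 ovary and eggshell genes had medians of 0.09 in wild-type against virgin and 0.01 in spermless against virgin. In wild-type against spermless 10 of 11 were higher, with a median of 0.13, where 45.3% of all genes were lower. Cp15, a chorion gene, had the widest range, at 3.88 in virgins and 4.50 to 4.63 in the mated columns. The 6 fat body genes went both ways against virgin: their medians were -0.00 and -0.02, but single genes ran from -0.46 to 0.47 in wild-type against virgin and from -0.58 (Lsp2) to 0.51 (Lsd-1) in spermless against virgin. In wild-type against DTA-E all 6 were lower, with a median of -0.11, beside 51.7% of all genes, and 5 were after removal of an intensity trend. In spermless against DTA-E 4 of 6 were lower, with a median of -0.34, where the core median was 0.26 and 50.9% of all genes were higher. None of 7 neuronal genes and none of 11 male accessory gland genes passed the filter, and 3 of 10 testis genes did. The part of these tissues in the core members' differences was not tested.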

How the data were processed

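The values, as deposited by the authors, are logarithms read as log2. The base, the scaling and the way 4 chips became 1 column are not given in the sources used here. GEO's platform annotation named the probe sets, and Entrez identifiers in a RefSeq gene table brought symbols up to date. Probe sets with several symbols (326) or none (1196) and 44 controls entered no gene comparison. Dim probe sets were removed by the filter described above, leaving 6534. Several probe sets of a gene were averaged.

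A difference is the first-named group minus the second, in 6 pairwise comparisons. It is described by medians and by counts past 1.5-fold (with 1.2-fold and 2-fold), beside the share of all genes past that fold. With 1 column per group there was no test. The calculation was tested on simulated data. Members, lists and rules were chosen with earlier results of these data known. Any member could be named. All columns were to be given for members past 1.5-fold and for the highest mean, lowest mean and widest range of each complex, and for up to 4 genes of widest range in each list. Mpcp2, TFAM, Sirup, levy, Men, Idh, Scsalpha1, ScsbetaG and Gs1l were picked after values were seen. A planned search of promoters for motifs was not run. Tools were Python 3.11.15, numpy 2.4.6, pandas 2.3.3, statsmodels 0.14.6 and matplotlib 3.10.9.

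The alternatives left out the centring, normalized by quantiles, dropped the filter, set it at the 75th percentile or on the mean column, took a gene's brightest probe set, removed an intensity trend by lowess, or left out the paralogues. The number of arrays limits the precision.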

Additional observations from a re-analysis of the deposited data

Results flagged for a closer look

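Some probe sets match a respiratory chain gene together with another gene and entered no comparison, yet gave signal above all 23 foreign control probe sets in every column. The probe set of CG18809 and COX6B, a complex IV subunit gene, was 3.15 in the spermless column and 2.67 in the wild-type column. The probe set of ATPsynG and beat-Vb was 2.69 and 2.32, that of lcs and sesB 3.35 and 3.10, and that of CG33493 and ND-13B 0.33 and 0.14. In these 4 the spermless column was the highest and the wild-type column the lowest. The probe set of CG8664 and sesB was -0.29 in the spermless column and that of Ant2 and sesB was -0.66, and neither had its lowest value in the wild-type column. Which gene gave the signal was not tested.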

How the results depend on the processing

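No paired analysis was possible because each group has 1 column, and no replicate could be left out. The 6 medians over members kept their sign under all 8 alternatives. The furthest from the main value were -0.38 in wild-type against spermless after quantile normalization (main value -0.47) and 0.15 in spermless against DTA-E without the filter (main value 0.25, 67 members in place of 58); the cause was not tested. The median of DTA-E against virgin ran from -0.05 to -0.01 (main value -0.03). Counts past 1.5-fold moved with the fold itself. At 1.2-fold, wild-type mates had 28 members lower than in virgins, 14 lower than in DTA-E mates and 47 lower than in spermless mates. At the same fold, spermless mates had 11 members higher than in virgins and 24 higher than in DTA-E mates, and DTA-E mates had 2 lower than in virgins. At 2-fold, wild-type mates had 1 member lower than in virgins, 2 lower than in spermless mates and 0 lower than in DTA-E mates, and spermless mates had 0 higher than in either virgins or DTA-E mates. In wild-type against spermless the count past 1.5-fold was 3 after quantile normalization in place of 12. In wild-type against DTA-E it was 1 in place of 2, without ND-MWFE, after quantile normalization, the stricter filter or removal of the trend. In spermless against DTA-E it was 1, without ND-B8, in the columns as deposited and without the filter. Members past 1.5-fold kept their direction in 133 of 133 alternatives and stayed within the probe set SD in 127. These genes have 1 probe set each, so taking the brightest changed nothing, and centring and filter settings shift all genes of a comparison alike. Only quantile normalization and removal of the trend could move single genes, so the direction count says little about robustness. Had the base been the natural log, a difference of 1 would be 2.72-fold. Signal over background limits COX7C, the dim paralogues and the wild-type value of ND-B8.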
